A study of Arabidopsis thaliana with 9 samples.

Results

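Nascent transcripts were compared between an Arabidopsis thaliana leaf library labelled nrpe1-11 and one labelled nrpd1-3. A nuclear gene was taken as measured when at least 20 reads had been counted in it in either of these libraries, and 16065 of 32399 nuclear genes were. Of these, 14503 reached 20 counts in both libraries, 847 only in the library labelled nrpe1-11 and 715 only in the one labelled nrpd1-3. The labels give 3-week-old leaf for every sample, and long days (16 h light, 8 h dark) at 22 °C. Nuclear run-on (NRO), in which engaged polymerases extend their transcripts with biotin-UTP and the tagged RNA is captured on streptavidin beads, was done once for nrpe1-11, once for nrpd1-3 and once for Col-0, the wild-type accession. Nuclear RNA without run-on (called RNA here) was also sequenced once per genotype, although the protocol text of those samples repeats the bead capture. No other allele or treatment is named, the number of plants pooled per library is not given in the labels, and with 1 library per genotype and assay the NRO comparison has no replicate check.

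NRPD1 and NRPE1 encode the catalytic, largest subunit of Pol IV and that of Pol V, plant-specific relatives of Pol II. Pol IV makes the precursors of small interfering RNAs, and Pol V makes the scaffold transcripts to which those small RNAs, held by an ARGONAUTE protein, direct the methyltransferase DRM2. Both polymerases therefore act in the same silencing pathway, RNA-directed DNA methylation, which in leaves keeps transposons and repeats near genes methylated. The series title asks about termination of Pol II transcription. Setting nrpe1-11 against nrpd1-3 asks at which genes losing the later step and losing the earlier step leave different nascent transcription. Counts per whole gene carry no position of a read within or past it.

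The library labelled nrpe1-11 held 7504294 gene counts, the one labelled nrpd1-3 held 8185846 and the Col-0 NRO library held 2687149. The RNA libraries were shallower, with 493080, 386011 and 709905 gene counts for nrpe1-11, nrpd1-3 and Col-0. Reads outside genes made up 18.6% of uniquely aligned NRO reads in each mutant library and 25.8% in Col-0, with reads in organelle genes left out of the total. The 10 genes with the most counts took 17.2% of gene counts in the library labelled nrpe1-11, 19.7% in the one labelled nrpd1-3 and 45.2% in Col-0, so Col-0 values are printed beside the mutants for orientation only. Levels are CPM, counts divided by the library size after scaling by trimmed mean of M values. Leaf identity was checked with marker lists. The 35 photosystem and light-harvesting genes summed to 16404 CPM in the library labelled nrpe1-11, 13480 CPM in the one labelled nrpd1-3 and 15001 CPM in Col-0. Of 4 root markers 2 were measured, PYK10 at 29.2, 45.3 and 16.9 CPM and SCR at 23.1, 28.8 and 13.9 CPM in the same order, and RHD6 and WOX5 had 0 counts in all 3 NRO libraries.

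The mutated genes were examined first. NRPD1 (AT1G63020) had 19 NRO counts in the library labelled nrpe1-11, 94 in the one labelled nrpd1-3 and 9 in Col-0, which is 2.04, 10.7 and 4.48 CPM. The ratio of nrpe1-11 over nrpd1-3 was 0.191 (95% counting interval 0.110 to 0.315). RNA held 3, 8 and 0 NRPD1 counts. The gene named in the nrpd1-3 label was thus most abundant in the library that carries this label. NRPE1 (AT2G40030) had 82 counts in the library labelled nrpe1-11, 81 in the one labelled nrpd1-3 and 24 in Col-0, or 8.80, 9.19 and 11.9 CPM, with a log2 ratio of -0.06. A count over the whole gene cannot show an insertion or whether the transcript is functional, so neither value identifies a genotype, and the mutant libraries are called by their labels throughout. Every direction below is that of the library labelled nrpe1-11 relative to the library labelled nrpd1-3. DDF2 (AT1G63030), the next gene to NRPD1 on chromosome 1 and an AP2-type transcription factor chosen after its values were seen, had 46, 199 and 60 NRO counts in the same order, a log2 ratio of -2.13.

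Most genes had similar nascent levels in both mutant libraries. The log2 ratio had a median of 0.00 and quartiles of -0.35 and 0.34, and 74.0% of genes lay within 1.5-fold. A gene is called higher or lower here when its log2 ratio is at least 1 in size and the 95% exact interval of the ratio excludes 1. This size rule is no test, and the interval covers counting error only. By it 537 genes were higher in the library labelled nrpe1-11, 3.34% of those measured, and 746 were lower, 4.64%. Together that is 7.99%. The called share was highest among genes with few reads: 30.8% of genes with under 50 counts over both libraries met the rule. It was 7.66% at 50 to under 200 counts, 3.00% at 200 to under 1000, 6.39% in the next deeper class and 5.29% among the genes with the most reads. At the edge of the measured set, 16 of 169 genes whose larger count was 20 were higher and 30 lower, and among 181 genes at 19 counts, just outside the set, 9 would have been higher and 21 lower. No chromosome stood out, with 2.99% to 3.91% of a chromosome's genes higher and 3.87% to 5.08% lower. Scaling by library totals in place of trimmed means moved the median of all genes to 0.21 and the split to 964 higher and 470 lower. Ratios below are therefore relative to the typical gene. In bulk leaf, fewer cells of a type and less RNA per cell cannot be told apart.

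**Figure D1:**
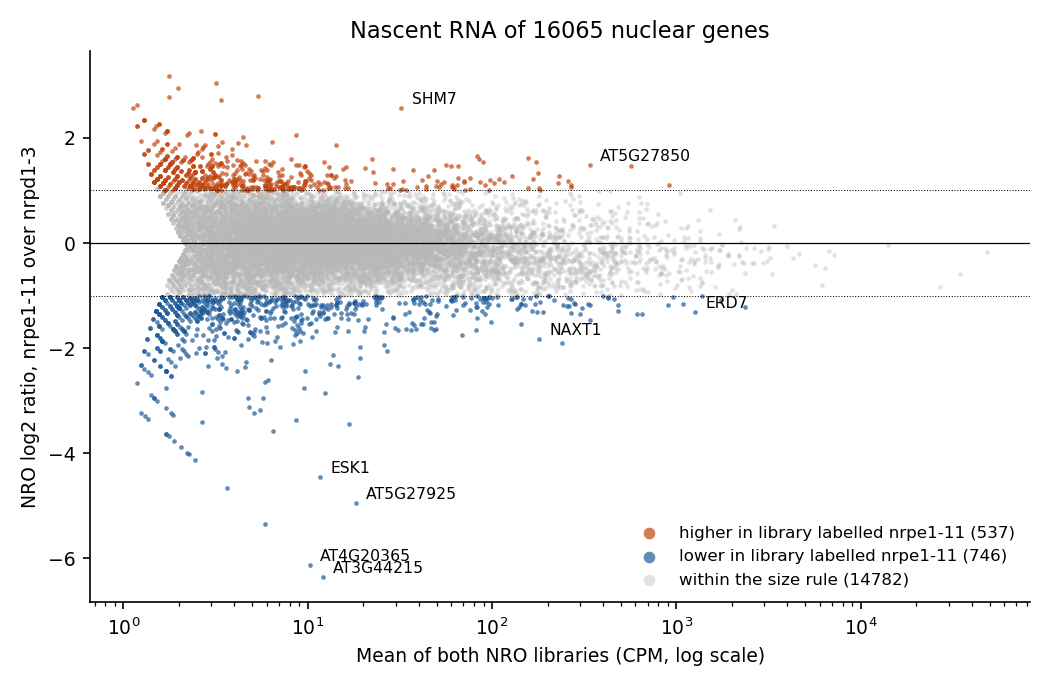
Each point is 1 of 16065 nuclear genes, with the mean CPM of both mutant NRO libraries on a log x axis and the NRO log2 ratio of nrpe1-11 over nrpd1-3 on the y axis. The 537 higher genes lie above the upper dotted line and the 746 lower genes below the other, with most called genes at low CPM and the lowest log2 ratio, -6.36, at AT3G44215.

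Of the 12 lower genes whose intervals lay farthest from 1, 9 were annotated as pseudogenes, a class that in this plant also holds transposon-derived loci, and 3 as protein coding. None of the 12 reached 20 counts in both libraries and 10 had no count in the library labelled nrpe1-11. They were measured only through the library labelled nrpd1-3, which fixed their direction, so their values are a description. AT3G44215 had 0 NRO counts in the library labelled nrpe1-11, 213 in the one labelled nrpd1-3 and 0 in Col-0, so it was at least 75.1-fold lower when the empty library is set at a floor of 3 counts. AT4G20365 had 0, 181 and 3 counts and was at least 63.8-fold lower. AT5G42645 had 0, 104 and 6 counts and was at least 36.7-fold lower. Scaled to depth, AT4G20365 stood at 20.5 CPM in the library labelled nrpd1-3 and 1.49 CPM in Col-0, and AT5G42645 at 11.8 CPM in the library labelled nrpd1-3 and 2.98 CPM in Col-0. AT3G44215 had 24.2 CPM in the library labelled nrpd1-3 and no read in the other NRO libraries. AT5G27925 had 8 counts in the library labelled nrpe1-11, 313 in the one labelled nrpd1-3 and 0 in Col-0, a ratio of 0.0242 (0.0103 to 0.0482). The other pseudogenes of this set, AT2G16680, AT5G26020, AT5G07215, AT1G48680 and AT5G28335, had 0 counts in the library labelled nrpe1-11, 31 to 64 in the one labelled nrpd1-3 and 0 to 2 in Col-0.

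Across the whole class 3910 pseudogenes are listed and 176 were measured. Of these, 51 were lower in the library labelled nrpe1-11 (29.0%) and 4 were higher (2.27%), against 4.64% and 3.34% of all genes, with a median log2 ratio of -0.30 against 0.00. Of the 51, 40 reached the minimum only in the library labelled nrpd1-3, and those had to lie on that side. Among the 113 pseudogenes with at least 20 counts in both libraries, 11 were lower and none was higher, with a median of -0.19, against 2.67% lower and 1.61% higher of the 14503 genes under the same filter. Under scaling by library totals 45 were lower and 10 higher, with a median of -0.10. The 51 loci had a median of 0.858 CPM (0 to 9.55) in the library labelled nrpe1-11, 4.99 CPM (2.27 to 35.5) in the one labelled nrpd1-3 and 0.497 CPM (0 to 107) in Col-0. In Col-0, 19 had no count and 8 stood above the library labelled nrpd1-3. Their summed NRO level was 71.1 CPM in the library labelled nrpe1-11, 445 CPM in the one labelled nrpd1-3 and 235 CPM in Col-0. AT5G41755, named after its values were seen, gave 107 of the Col-0 CPM, and without it the sums were 68.6, 414 and 128 CPM. The 51 loci lay on all chromosomes but not in equal shares. They were 6 of 32, 10 of 40, 9 of 39, 11 of 24 and 15 of 41 measured pseudogenes on chromosomes 1 to 5. The other 125 pseudogenes had 4 higher calls among them.

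**Figure D2:**
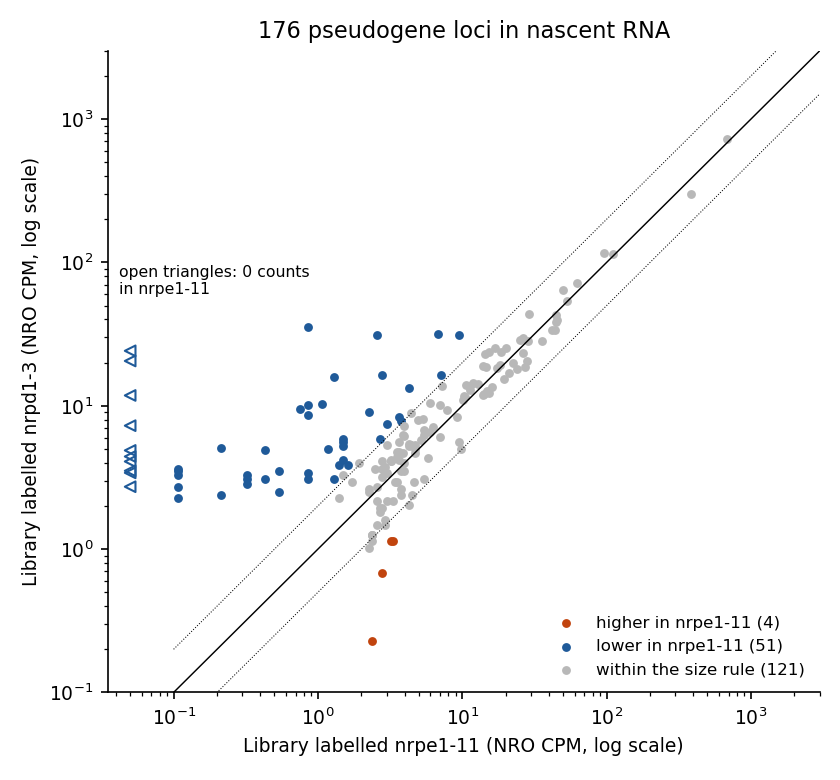
Each point is 1 of 176 measured pseudogenes, with NRO CPM in the library labelled nrpe1-11 on the x axis and in the one labelled nrpd1-3 on the y axis, both log scales. The solid line marks equal levels and the dotted lines 2-fold, and the 51 lower loci lie above the upper dotted line, 10 of them with no count in nrpe1-11.

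RNA from separate libraries, which the choice of loci did not use, was read at the same 51 pseudogenes. They summed to 37 RNA counts in the library labelled nrpe1-11, 201 in the one labelled nrpd1-3 and 98 in Col-0, a scaled ratio of nrpe1-11 over nrpd1-3 of 0.167 (counting interval 0.115 to 0.239). AT3G44215 alone gave 42 of the nrpd1-3 counts, and without it the sums were 37, 159 and 98 and the ratio 0.212 (0.144 to 0.304). The 11 loci with 20 NRO counts in both libraries summed to 24, 52 and 70 RNA counts, a ratio of 0.420 (0.248 to 0.693), and the 40 that reached 20 only in the library labelled nrpd1-3 to 13, 149 and 28, a ratio of 0.0794 (0.0413 to 0.140). Of the 36 loci with any RNA count, 32 had a lower RNA level in the library labelled nrpe1-11 and 4 a higher one. The 125 pseudogenes that were not lower in NRO had an RNA ratio of 1.04 (0.960 to 1.12). The 3 higher pseudogenes with intervals farthest from 1 were AT2G16140 with 22, 2 and 1 NRO counts, AT4G05585 with 26, 6 and 0, and AT3G43828 with 31, 10 and 29, in the order nrpe1-11, nrpd1-3, Col-0.

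The protein-coding genes among these 12 were ESK1, AT3G60950 and AT2G16676. ESK1 (AT3G55990), an acetyltransferase of cell wall xylan whose loss increases freezing tolerance, had 7 NRO counts in the library labelled nrpe1-11, 199 in the one labelled nrpd1-3 and 27 in Col-0, a ratio of 0.0332 (0.0132 to 0.0698). Its RNA held 1, 1 and 2 counts, too few to set beside the NRO ratio. AT3G60950 had 0, 40 and 0 NRO counts and AT2G16676 had 0, 33 and 0. In NRO the library labelled nrpd1-3 alone held reads of these.

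The 12 higher genes whose intervals lay farthest from 1 were all protein coding, and 4 of them reached 20 counts in both libraries. The rest, GA3OX1 among them, were measured only through the library labelled nrpe1-11. That fixed their direction, so their values are a description. SHM7 (AT1G36370), a serine hydroxymethyltransferase family member linked to sulfur homeostasis, had 516 NRO counts in the library labelled nrpe1-11, 80 in the one labelled nrpd1-3 and 37 in Col-0, which is 55.4, 9.08 and 18.4 CPM. It was 6.10-fold higher (4.81 to 7.81), and its RNA counts of 24, 4 and 8 gave a log2 ratio of 2.02. The library labelled nrpe1-11 thus stood above both others in both assays. FDH (AT5G14780), the mitochondrial formate dehydrogenase, had 2201, 679 and 101 counts, a ratio of 3.06 (2.81 to 3.34). PK1B, a receptor-like cytoplasmic kinase, had 132, 28 and 11 counts, a ratio of 4.46 (2.95 to 6.96). GA3OX1, which makes bioactive gibberellin, had 57 counts in the library labelled nrpe1-11, 6 in the one labelled nrpd1-3 and 1 in Col-0, a ratio of 8.98 (3.88 to 25.5). The others with 20 to 55 counts in the library labelled nrpe1-11 and 1 to 4 in the one labelled nrpd1-3 were AT1G49210, AT1G58225, the bHLH factor UPB1, the aquaporin PIP2;4, the plastid ribosomal protein PSRP3/2 and the replication origin subunit ORC2. Their intervals were wide, for example 5.05 to 1231 around 30.2 for AT1G49210 (32 counts against 1).

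Sulfur genes appeared more than once among these 12, and a list of 18 sulfur limitation genes was drawn up after those values had been seen, so its counts are no independent evidence. Of 11 measured, 6 were higher (54.5%, against 3.34% of all genes) and none lower, with a median log2 ratio of 1.02. Among the 9 with 20 counts in both libraries 4 were higher, against 1.61% of all genes under that filter, and the median was 0.60. SDI1, a repressor of glucosinolate synthesis induced by sulfur deficiency, had 90 NRO counts in the library labelled nrpe1-11, 10 in the one labelled nrpd1-3 and 5 in Col-0. SDI2 (AT1G04770), its relative, had 1171, 350 and 43 counts, a ratio of 3.16 (2.80 to 3.57). Sulfate reduction genes followed, with the adenylyl-sulfate reductase APR2 at 96.4, 34.9 and 38.8 CPM and APR3 at 128, 63.2 and 111 CPM. LSU2 had 55, 17 and 2 counts. APR1 (log2 ratio 0.60) and the vacuolar sulfate exporter SULTR4;1 (0.51) did not meet the rule, and SULTR2;1 stood at -0.01.

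**Figure D3:**
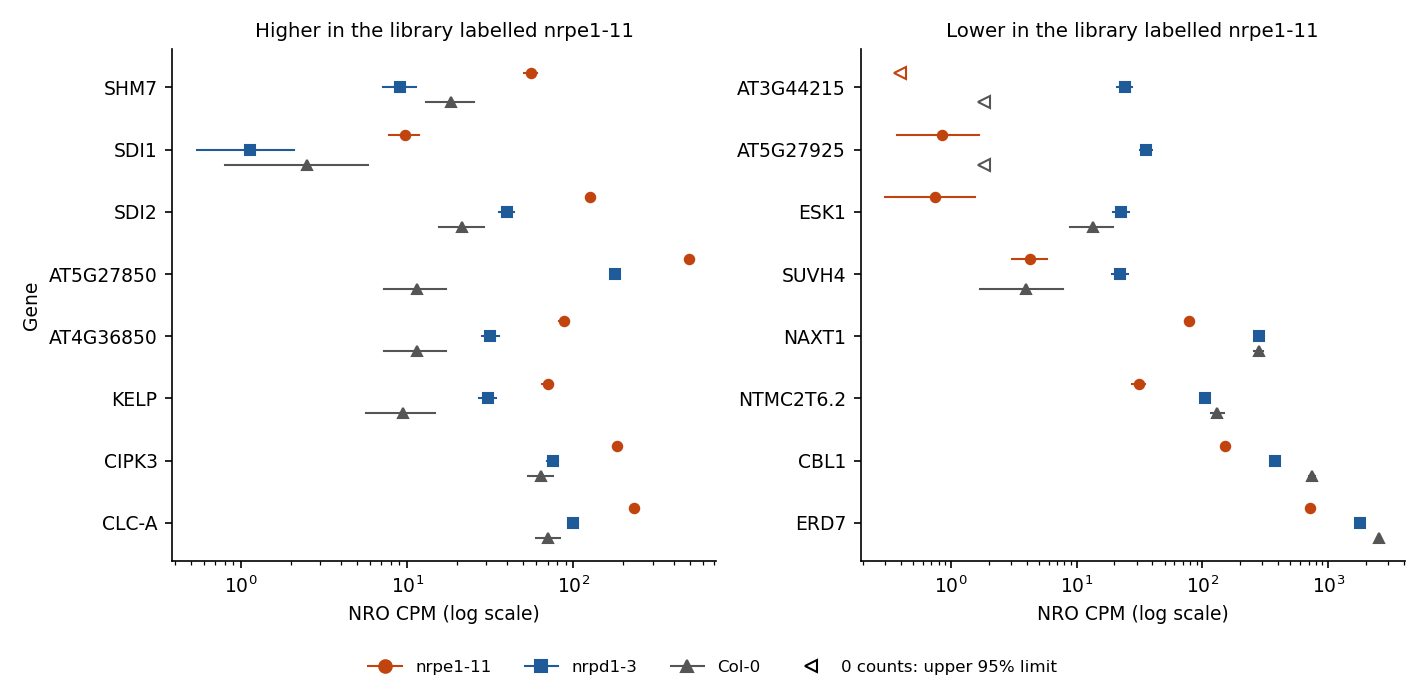
NRO CPM on a log x axis for 8 genes called higher and 8 called lower, with points for the libraries labelled nrpe1-11 and nrpd1-3 and for Col-0, bars for 95% Poisson counting intervals of 1 library and open triangles for the upper limit of a count of 0. At SHM7 the nrpe1-11 point stands above both others, whereas at AT3G44215 the nrpd1-3 point does, and NAXT1 is near equal in nrpd1-3 and Col-0 (281 and 282 CPM).

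Nuclear RNA gave a second set of libraries from the same genotypes. Of the 16065 genes, 2858 also had at least 20 RNA counts in either mutant library, and in RNA 157 of these were higher (5.49%) and 147 lower (5.14%). Among the 2858, 51 were higher in NRO (1.78%) and 66 lower (2.31%). Of the 51 genes higher in NRO, 19 were higher in RNA, none was lower and 49 had an RNA log2 ratio above 0, with a median of 0.78. Of the 66 genes lower in NRO, 35 were lower in RNA, 1 was higher and 63 had a log2 ratio below 0, with a median of -1.06. Across the 2858 genes Pearson's r between the NRO and RNA log2 ratios was 0.580 and Spearman's rho 0.590, a description over genes, which are not independent replicates.

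The 8 genes named among the 19 higher in both assays include SHM7, described above. CIPK3, a kinase activated by calcium sensors, had 183 NRO CPM in the library labelled nrpe1-11, 74.9 in the one labelled nrpd1-3 and 63.7 in Col-0, with RNA counts of 74, 27 and 18. CLC-A, the vacuolar nitrate/proton exchanger, had 233, 99.7 and 70.6 NRO CPM and RNA counts of 79, 30 and 23. BBX15, a B-box zinc finger protein, had 161, 71.9 and 49.7 NRO CPM and RNA counts of 76, 28 and 14. In all of these the order was the same in both assays, with the library labelled nrpe1-11 highest. AT5G27850 had 499 NRO CPM in the library labelled nrpe1-11, 178 in the one labelled nrpd1-3 and 11.4 in Col-0. The others named by the rule were AT4G36850, the chloroplast RNA-binding protein CP29 and the transcriptional coactivator KELP, with NRO log2 ratios of 1.46, 1.19 and 1.19.

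The 8 genes named among the 35 lower in both assays include AT3G44215, described above. NAXT1, a nitrate excretion transporter of the plasma membrane, had 78.6 NRO CPM in the library labelled nrpe1-11, 281 in the one labelled nrpd1-3 and 282 in Col-0, with RNA counts of 8, 32 and 101. NTMC2T6.2 had 31.1, 106 and 132 NRO CPM and RNA counts of 5, 26 and 48. CBL1, a calcium sensor that activates CIPK kinases, had 152, 381 and 747 NRO CPM and RNA counts of 11, 57 and 149. The library labelled nrpe1-11 was the lowest of the 3 at each of these genes in both assays. ERD7, induced early in dehydration, had 720, 1795 and 2513 NRO CPM, and XTH18, a cell wall xyloglucan endotransglucosylase, had 343, 880 and 1018. BPS3 and AT1G56660 had NRO ratios of 0.361 (0.341 to 0.382) and 0.409 (0.390 to 0.428).

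**Figure D4:**
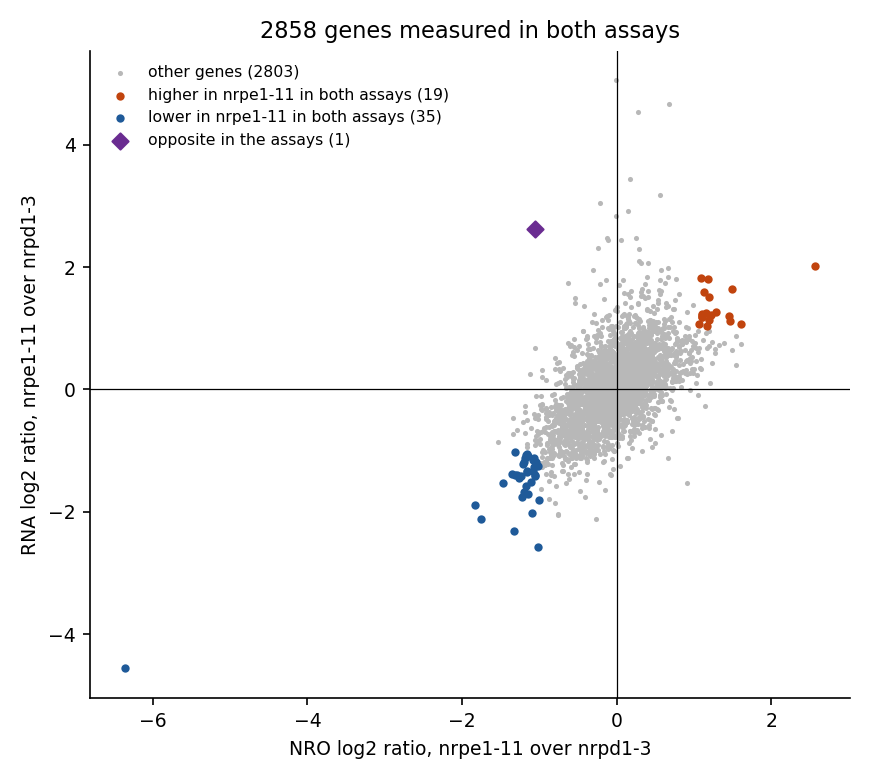
Each point is 1 of 2858 genes measured in both assays, with the NRO log2 ratio of nrpe1-11 over nrpd1-3 on the x axis and the RNA log2 ratio on the y axis. The 19 genes higher in both assays and the 35 lower in both are coloured, and the diamond is HSP60-2, the 1 gene called in opposite directions.

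All 6 libraries were also fitted in 1 model with terms for assay and genotype, whose spread is that between assays and not between plants (2 residual degrees of freedom). In the fit edgeR drew the spread of every gene fully to the trend over genes (infinite prior degrees of freedom). The p-values therefore do not rest on a gene's own spread. Of 14530 genes tested with edgeR's quasi-likelihood test, 67 were higher in nrpe1-11 than in nrpd1-3 (0.461%) and 243 lower (1.67%) at an adjusted p under 0.05. Of these 310 genes, 257 had met the size rule in NRO in the same direction, 54 higher and 203 lower, and 53 had not met it. The same NRO libraries were part of the fit, so this overlap is no independent check. SHM7 had an adjusted p of 1.11e-11 and a log2 difference of 2.52 ± 0.32 (SE) by edgeR. NTMC2T6.2 had an adjusted p of 8.12e-07 and a log2 difference of -1.91 ± 0.31 by edgeR. SHM7 and NTMC2T6.2 had been named for their ratios in these same libraries, so their p-values are no independent evidence. DESeq2 gave neither gene an adjusted p. The number of calls rests on single libraries: it was 27 without the nrpe1-11 NRO library, 8 without the nrpd1-3 NRO library, 1243 without the Col-0 NRO library, 80 without the nrpe1-11 RNA library, 81 without the nrpd1-3 RNA library and 1176 without the Col-0 RNA library. Without the nrpd1-3 NRO library the adjusted p was 0.389 for SHM7 and 0.651 for NTMC2T6.2 by edgeR. Of 115 pseudogenes tested 7 were lower and none higher.

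Jasmonate genes were lower more often than the background. This list and those below were chosen with earlier results of these data known, so their counts are no independent evidence. Jasmonate is the wound and herbivory hormone: JAZ proteins repress its transcription factors until the receptor COI1 removes them, and JAZ genes are themselves induced by the signal. Of 19 measured genes of jasmonate signalling, turnover and output, 5 were lower and none higher (26.3% against 4.64% of all genes), 16 had a log2 ratio below 0 and the median log2 ratio was -0.56. All 10 measured JAZ genes lay below 0, between -1.04 and -0.15, and JAZ7 met the rule with 106, 217 and 412 CPM in the libraries labelled nrpe1-11, nrpd1-3 and Col-0. The other 4 encode enzymes that oxidise or hydrolyse jasmonate conjugates. CYP94C1 had 44.4 CPM in the library labelled nrpe1-11, 108 in the one labelled nrpd1-3 and 566 in Col-0. CYP94B3 had 295, 620 and 956 CPM, and IAR3 had 56.1, 122 and 454. CYP94B1 had 39, 81 and 21 counts. In CPM the libraries stood in the order nrpe1-11, nrpd1-3, Col-0 from low to high at all 5 genes, although the CYP94B1 values of nrpd1-3 and Col-0 (9.19 and 10.4 CPM) lie within counting error of each other. Under scaling by library totals the list had 13 of 19 genes below 0 and a median of -0.35, and JAZ7, CYP94B1, CYP94B3 and IAR3 no longer met the rule.

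Jasmonate synthesis genes had a median of -0.25, with 1 of 10 lower (10.0% against 4.64% of all genes), and 7 of 10 below 0 (5 of 10 under library totals). OPR3, the peroxisomal reductase of jasmonate synthesis, had 627 CPM in the library labelled nrpe1-11, 1283 in the one labelled nrpd1-3 and 3118 in Col-0. The lipoxygenases LOX3 and LOX4 had log2 ratios of -0.97 each in NRO, short of the rule, and of -1.27 and -1.10 in RNA, where both were lower. LOX2 had a log2 ratio of 0.41. The members of this pathway thus did not share a direction. Near-identical copies such as the AOC genes cannot be kept apart with certainty by these counts.

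Genes of the early response to touch, cold and stress had a median log2 ratio of -0.25, and 16 of 19 lay below 0, but none met the rule and under library totals 11 of 19 lay below 0 with a median of -0.04. TCH4, a touch-induced cell wall enzyme, had 2914 CPM in the library labelled nrpe1-11, 3558 in the one labelled nrpd1-3 and 2609 in Col-0. Of 13 salicylic acid and defence genes 1 was lower (7.69% against 4.64% of all genes). This was EDS5, the chloroplast exporter of the salicylate precursor, with 22.9, 62.2 and 85.6 CPM. The median of that list was -0.05. Of 9 heat shock and chaperone genes none met the rule, and their median was 0.12.

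Photosynthesis genes had slightly higher nascent levels in the library labelled nrpe1-11. All 35 photosystem and light-harvesting genes had a log2 ratio above 0, between 0.07 and 0.49 with a median of 0.30, and none met the rule. In RNA all 35 again lay above 0, with a median of 0.59, against 0.06 over the 2858 genes measured there. Of the 35, 3 were higher in RNA, against 5.49% of the 2858. Scaling by library totals moved the RNA median of the 2858 genes to -0.15. These genes are co-regulated and are not 35 independent readings. LHCB1.3, a major light-harvesting protein of photosystem II, had 2402 CPM in the library labelled nrpe1-11, 1997 in the one labelled nrpd1-3 and 2948 in Col-0. Of 13 genes of Rubisco, the Calvin cycle and electron carriers 12 lay above 0 with a median of 0.50 and none met the rule. RCA, the Rubisco activase, had 687, 404 and 973 CPM, and RBCS1A, a Rubisco small subunit, 372, 243 and 663 CPM. The library labelled nrpe1-11 lay between the library labelled nrpd1-3 and Col-0 at these 3 genes. Over the lists it did so at 14 of 35 photosystem genes and 9 of 13 Rubisco and Calvin cycle list genes, and it was the highest of the 3 libraries at 21 and 3 of them. Reads shared by near-identical LHCB1 and RBCS copies were assigned to no gene.

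Genes of the list of darkness, sugar starvation and starch breakdown were higher more often than the background, in a list likewise chosen with earlier results known. Of 14 measured, 5 were higher and none lower (35.7% against 3.34% of all genes), 12 had a log2 ratio above 0, and the median log2 ratio was 0.67. In RNA all 11 measured members lay above 0 with a median of 0.49, against 0.06 over all genes measured in RNA, and none met the rule there. BAM9, a catalytically inactive relative of the starch-degrading beta-amylases, had 54.3 CPM in the library labelled nrpe1-11, 20.5 in the one labelled nrpd1-3 and 25.9 in Col-0. DIN10 had 361, 158 and 111 CPM, SEN1 245, 121 and 81.6 CPM, and the beta-galactosidase gene BGAL4 152, 65.5 and 17.9 CPM. DYL1, the dormancy-associated gene, had 42.4, 21.0 and 23.4 CPM, a ratio of 2.02 (1.69 to 2.42) at the edge of the rule. The library labelled nrpe1-11 was the highest of the 3 at each of the 5 genes.

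Growth-promoting and brassinosteroid genes had a median log2 ratio of 0.61, with 11 of 13 above 0 and 2 higher (15.4% against 3.34% of all genes). HBI1, a growth-promoting bHLH factor, had 97.9 CPM in the library labelled nrpe1-11, 42.8 in the one labelled nrpd1-3 and 16.9 in Col-0, and RNA counts of 63, 25 and 9. XYL1, a xyloglucan xylosidase, had 260, 88.7 and 17.9 NRO CPM and RNA counts of 82, 56 and 19. Of 21 auxin response genes, the GH3 family gene DFL2 was higher (123, 46 and 138 counts) and the repressor gene IAA6 lower (98, 224 and 13 counts), with a list median of 0.36. Each is 4.76% of the list, against 3.34% higher and 4.64% lower of all genes. Of 7 nitrate genes 1 was lower (14.3% against 4.64% of all genes). This was NRT1.8, a transporter that removes nitrate from xylem sap, with 18, 67 and 97 counts. It reached 20 counts only in the library labelled nrpd1-3, which fixed its direction. Of the 5 nitrate genes with 20 counts in both libraries none met the rule. The nitrate reductase genes NIA1 and NIA2 had log2 ratios of 0.83 and 0.44.

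Of the circadian clock genes, 1 of 10 morning genes (10.0%) and 1 of 7 evening genes (14.3%) were higher, against 3.34% of all genes, and none was lower. The list medians were 0.12 and 0.20. RVE1, a morning MYB-like factor that raises auxin synthesis, had 22.4 CPM in the library labelled nrpe1-11, 9.54 in the one labelled nrpd1-3 and 5.47 in Col-0. PRR5, an evening repressor of morning genes, had 48, 14 and 9 counts. It reached 20 counts only in the library labelled nrpe1-11, which fixed its direction. Of the 6 evening genes with 20 counts in both libraries none met the rule. The core morning pair CCA1 and LHY stood at log2 ratios of 0.05 and 0.19, and the evening genes TOC1 and GI at -0.56 and -0.43. The evening genes LUX and ZTL stood at 0.88 and 0.78, so the evening list spread to both sides of 0.

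**Figure D5:**
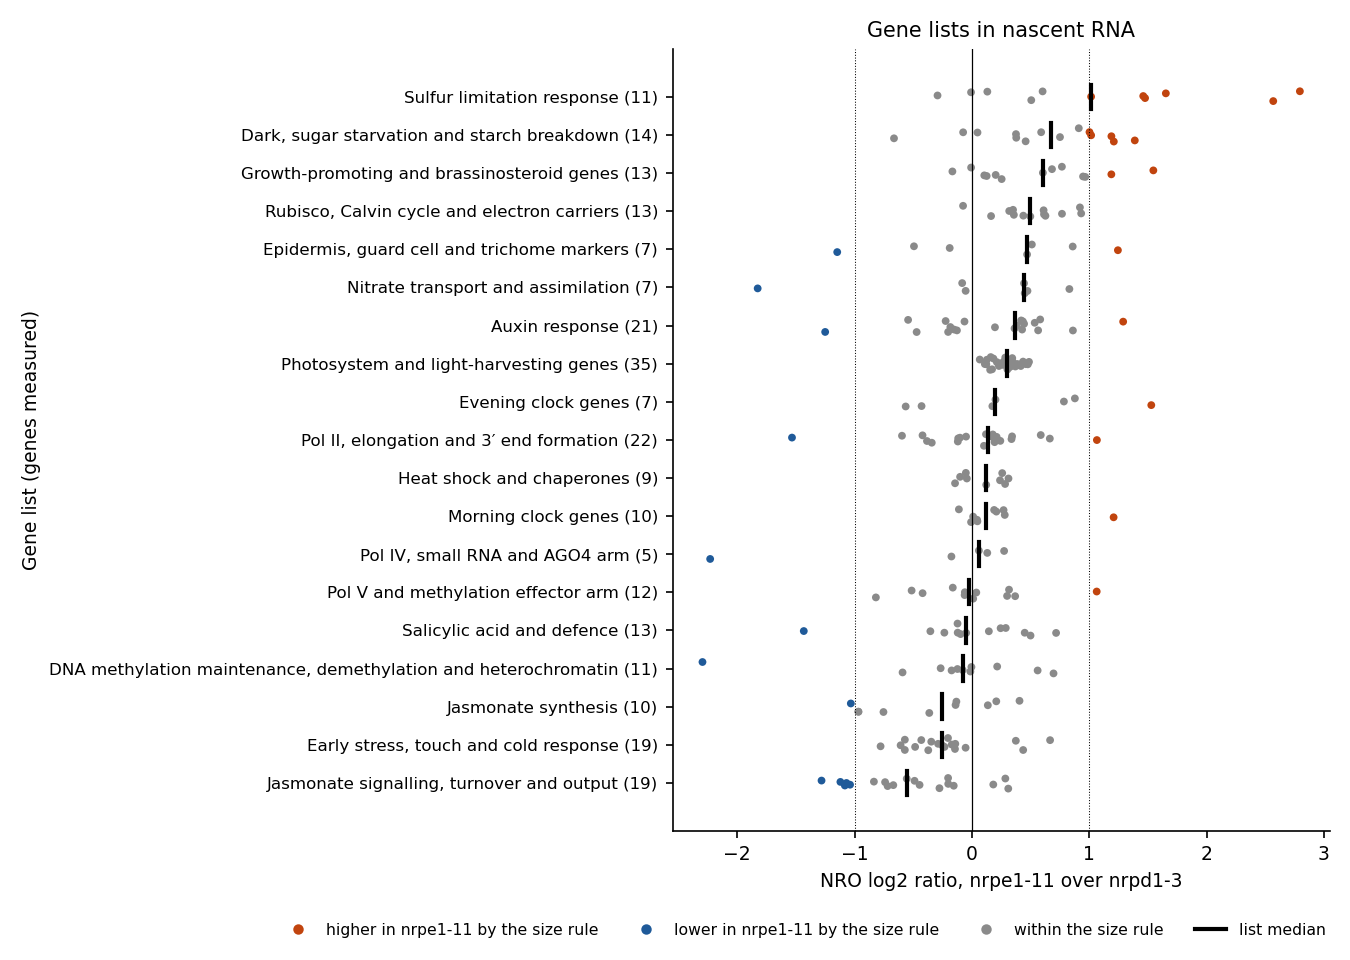
Each point is a measured gene, by list, at its NRO log2 ratio of nrpe1-11 over nrpd1-3, with a black bar at the list median and dotted lines at the size threshold. Medians run from 1.02 for the sulfur list, drawn up after its values were seen, to -0.56 for jasmonate signalling, and the 35 photosystem genes cluster between 0.07 and 0.49.

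In each list of silencing factors 1 measured gene met the rule, of 5, 12 and 11 genes, against 7.99% of all measured genes. Of 12 genes of the Pol IV, small RNA and AGO4 arm, 5 were measured and NRPD1 was the 1 that met the rule. NRPD1 reached 20 counts only in the library labelled nrpd1-3, which fixed its direction. Of the 4 genes of this arm with 20 counts in both libraries none met the rule. NRPD2A, the second subunit shared by Pol IV and Pol V, had 117 counts in the library labelled nrpe1-11 and 106 in the one labelled nrpd1-3, a log2 ratio of 0.06, and AGO4, the small RNA carrier, stood at 0.27. Of 13 genes of the Pol V and methylation effector arm, 12 were measured and DRM2 was higher, with 34, 14 and 6 counts and a log2 ratio of 1.06. DRM2 reached 20 counts only in the library labelled nrpe1-11, and of the 11 genes with 20 counts in both libraries none met the rule. Of 11 measured genes of methylation maintenance, demethylation and heterochromatin, SUVH4 (KRYPTONITE), the histone H3 lysine 9 methyltransferase that sustains CMT3 methylation, was lower with 40, 196 and 8 counts, or 4.29, 22.2 and 3.98 CPM, and RNA counts of 0, 8 and 7. The NRO level of SUVH4 in the library labelled nrpe1-11 was close to that in Col-0, and the library labelled nrpd1-3 was above both. ROS1, a DNA demethylase, had a log2 ratio of 0.70. SDC, an F-box gene silenced by methylation of its promoter repeats in wild type, had 78 counts in the library labelled nrpe1-11, 69 in the one labelled nrpd1-3 and 0 in Col-0, a log2 ratio of 0.09, and FWA, QQS and APUM9 were not measured.

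Among 22 genes of Pol II, elongation and 3′ end formation, 1 was higher (4.55% against 3.34% of all genes) and 1 lower (4.55% against 4.64%), so this list did not depart from the background. PAPS1, a nuclear poly(A) polymerase, had 73.9 CPM in the library labelled nrpe1-11, 215 in the one labelled nrpd1-3 and 370 in Col-0. PCFS4, a cleavage factor, had 19.1, 8.97 and 16.9 CPM. NRPB1 and NRPB2, the largest Pol II subunits, had log2 ratios of -0.05 and 0.24, and the 5′ to 3′ exonucleases XRN2 and XRN3 of 0.34 and 0.59.

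Markers of other cell types were sparse. Of 7 measured epidermis, guard cell and trichome markers 1 was higher and 1 lower (14.3% each, against 3.34% and 4.64% of all genes). The guard cell potassium channel gene KAT1 was higher (69, 26 and 2 counts) and the epidermal gene PDF1 lower (51, 110 and 29 counts). The 7 summed to 148, 110 and 79.6 CPM in the libraries labelled nrpe1-11, nrpd1-3 and Col-0. Of 6 vascular markers the phloem sucrose transporter gene SUC2 was measured, at 26.9, 26.9 and 23.4 CPM. Of 5 dividing cell markers 3 were measured, summing to 64.0, 104 and 45.3 CPM, with the cyclin gene CYCD3;1 at a log2 ratio of -0.85. The floral genes FT, AP1 and AG and the repressor FLC were not measured, and SOC1, SVP and FLM had log2 ratios of 0.84, 0.60 and 0.57, none meeting the rule. The part of these markers in the results above was not tested.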

How the data were processed

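Per the submitters' processing notes, the authors trimmed with Trimmomatic 0.33, aligned with TopHat2 2.1.0 to build TAIR10 and counted with HTSeq, and they deposited raw read counts for each gene. Strand setting, counting mode and annotation release are not given in the sources used here. Overlapping and antisense genes may share reads. Reads aligned more than once were tallied apart and belong to no gene, so near-identical copies are under-counted. The 5 HTSeq summary lines stayed out of library sizes.

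Ratios of nrpe1-11 over nrpd1-3 are log2 ratios of CPM (trimmed mean of M values over the 3 NRO libraries, prior count 2) in edgeR 4.0.16 under R 4.3.3. Intervals are 95% exact (Clopper-Pearson) conditional binomial intervals of the ratio of 2 counts and exact Poisson intervals of 1 count (SciPy 1.17.1). They and the floor of 3 counts, 0.322 CPM in nrpe1-11, 0.341 in nrpd1-3 and 1.49 in Col-0, cover counting error only, because reads amplified by PCR, with no molecular identifiers, do not each stand for a molecule. The model of all 6 libraries used edgeR's quasi-likelihood test with Benjamini-Hochberg adjustment on genes that reached 20 counts in 2 or more of them. DESeq2 1.42.0 served as an alternative. The fits were tested on simulated data. Nothing in the labels says that libraries came from separate cultures of plants, so the spread may be technical.

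Names, biotypes and gene order came from RefSeq (assembly TAIR10.1), where 31912 of 32399 nuclear identifiers were found. No sequence was used. The 279 organelle genes were left out, and the exoChIP samples were not analysed here.

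Named genes follow a rule: NRPD1 and NRPE1, the 12 genes called in each direction whose interval bound nearest to 1 lay farthest from 1, the 8 in each direction with the largest smaller ratio over both assays, list members called in NRO (or the 2 with the most counts), and the 3 clearest calls in each direction per annotation class. Any other gene given with a ratio is a list member or was picked with its values in view, as stated beside it. The members and lists were chosen with earlier results of these data known. Alternatives covered scaling, the minimum count, the prior count, depth, the size rule, the tool, the model terms and each library left out.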

Additional observations from a re-analysis of the deposited data

Results flagged for a closer look

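HSP60-2 (AT2G33210), a mitochondrial chaperonin gene, moved in opposite directions in the 2 assays. It had 24 NRO counts in the library labelled nrpe1-11, 50 in the one labelled nrpd1-3 and 8 in Col-0, a log2 ratio of -1.06 that met the size rule as lower. In RNA it had 31, 3 and 0 counts in the same order, a log2 ratio of 2.63 that met the rule as higher. With 1 library per genotype and assay the difference between the assays was not tested. Under scaling by library totals its NRO log2 ratio was -0.87, which no longer meets the rule.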

How the results depend on the processing

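Scaling by library totals gave 964 higher and 470 lower genes in NRO, and for RNA 94 and 260, while DESeq2 size factors, trimmed means from the 2 mutant libraries, a prior count of 0.5 and thinning kept each NRO count within 1.5 times. Without a minimum count 1951 genes met the size rule, 1208 of them lower, and 112 pseudogenes were lower. With 20 counts in both libraries 620 met it, 233 higher and 387 lower, with 11 pseudogenes lower, and a mean of 20 counts left 31 lower pseudogenes. Only 326 genes, 84 higher and 242 lower, had the whole interval past 2-fold. In RNA, 98 genes met the rule with 20 counts in both libraries, 38 higher and 60 lower. The larger library, the one labelled nrpd1-3, was the one thinned.

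The model of both assays called 310 genes, 37 by DESeq2 (which gave 727 genes an adjusted p), 995 in the 4 mutant libraries alone, 195 with a minimum of 50 counts, and 8 to 1243 with 1 library left out. Where a genotype kept 1 library, it was assumed to vary like the others. Without the assay term edgeR called 0 genes, with 97 at an unadjusted p under 0.05. The cause of these changes was not tested. No paired analysis was possible because the labels carry no replicate numbers within a genotype and assay.

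Over 131 named genes and their alternatives, 972 of 990 values kept their direction and their side of the rule, 17 fell short of it and none changed direction. A change of the minimum count leaves a gene's ratio as it was, so those values could not change. Genes dropped by a stricter minimum are not in this tally, nor is the setting with the whole interval past 2-fold. Under library totals OPR3, PDF1 and RLP21 were among those that fell short, and NIA1 met the rule (1.04). The salicylic acid list's median was 0.16 there. Depth limits genes with under 50 counts and most RNA ratios.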

Other observations

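Of 125 long noncoding RNAs, 3 were higher (2.40%) and 6 lower (4.80%) in the library labelled nrpe1-11, against 3.34% and 4.64% of all genes, with a median log2 ratio of -0.18, and AT1G09421 had 10, 45 and 9 counts in the libraries labelled nrpe1-11, nrpd1-3 and Col-0. Of 30 microRNA genes 1 was higher (3.33% against 3.34% of all genes). This was the precursor gene MIR162a, with 49, 11 and 1 counts and a ratio of 4.21 (2.16 to 8.98). The microRNA it gives rise to targets the mRNA of the dicer DCL1 in Arabidopsis. TAS1A, a source of trans-acting small interfering RNAs, had 41, 18 and 4 counts, a ratio of 2.15 (1.21 to 3.98) that fell short of the rule under DESeq2 size factors and under thinning. Of 13 measured tRNA genes 4 were lower (30.8%) and 1 higher (7.69%), against 4.64% and 3.34% of all genes. Of the 13, 6 had at least 20 counts in both libraries, of which 1 was lower. The lowest, AT3G05525, had 1, 26 and 0 counts, a ratio of 0.0363 (0.000887 to 0.221).

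The 4 rRNA genes summed to 53622 CPM in the library labelled nrpe1-11, 62068 in the one labelled nrpd1-3 and 404759 in Col-0, and 1 of them was lower.

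Adjacent genes were called in the same direction somewhat more often than measured genes in general had such a neighbour. Of 744 annotated lower genes, 10.5% had an adjacent counted gene that was also lower, against 5.64% of all measured genes, and of 536 higher genes 5.97% had a higher neighbour, against 3.83%. Genes that overlap may share reads, and their part in this was not tested. The longest run of lower neighbours held 4 genes on chromosome 2, named after their values were seen. AT2G25460 had 1705 NRO counts in the library labelled nrpe1-11, 3790 in the one labelled nrpd1-3 and 1616 in Col-0, RLP21, a receptor-like protein gene, had 18, 41 and 15, AT2G25480 had 61, 118 and 14, and AT2G25482 had 1, 25 and 4. Under scaling by library totals RLP21 and AT2G25480 did not meet the rule.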
